A study of Mus musculus with 12 samples.

Results

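The genes described here are 8 genes of Notch signalling and its Hes effectors in mouse embryonic stem cells: the receptor gene Notch1, the ligand genes Dll1 and Jag1, the feedback gene Nrarp, and Hes1, Hes3, Hes5 and Hes6. They are 8 of 21887 protein-coding genes in RefSeq (GRCm38.p6, also named mm10). They were chosen by pathway and by the SOX2 regions near them in these data, Nrarp for a region found in both conditions and Hes3 for its cluster of regions, so the presence of regions within 50 kb is the choice itself and not a finding. All 21 asynchronous and 1 mitotic region with a midpoint within 50 kb of a gene span are given below, of 10351 and 84 distinct regions in all.

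SOX2, a transcription factor of pluripotent and neural stem cells, was mapped by chromatin immunoprecipitation and sequencing (ChIP-seq) in E14, an established mouse embryonic stem cell line. The 12 libraries fell into 4 groups of 3 replicates, SOX2 ChIP and input DNA of asynchronous and of mitotic cells. All cells grew in 10% serum with leukemia inhibitory factor and, as inhibitors of GSK3 and MEK, CHIR99021 at 3 μM and PD184352 at 0.8 μM. Only the mitotic groups were treated overnight with nocodazole, which blocks the spindle, then fixed and sorted for H3S10p, a histone mark of condensed chromosomes. The 3 replicates of a condition were pooled into 1 list of regions, so that no value below has a replicate error and no test between conditions was possible. The lists hold positions only, with no height, score or read count, and sequencing depth is unknown. Their names carry q-value tags read as 0.01 for asynchronous and 0.05 for mitotic cells, and 5239 and 47 peak numbers are not among the entries used here, so a gene without a listed region is not shown to be unbound. The embryonic stem cell loci Sox2, Pou5f1, Nanog, Esrrb, Tfcp2l1 and Klf4 each had 1 to 6 asynchronous regions within 50 kb, and none had a mitotic one. Over all protein-coding genes, 45.5% had an asynchronous region within 50 kb and 0.836% a mitotic one. The lack of mitotic regions at so few loci cannot be told from that last share.

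Notch signalling passes between touching cells. A ligand of the Delta or Jagged family on one cell leads to cleavage of a Notch receptor on its neighbour, and the freed intracellular part joins the DNA-binding protein RBPJ to switch on target genes. Among the best known targets are Hes genes, which encode basic helix-loop-helix repressors, and Nrarp, which binds the intracellular part and limits the signal. In embryonic stem cells the pathway is mostly discussed for its part in entry into the neural lineage, where Hes1 and Hes5 keep progenitors undifferentiated and SOX2 is also present.

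At 6 of the 8 genes a SOX2 region lay over a promoter, counting any annotated start of the gene. The count was 4 by the first listed start of each gene and 5 by the region's midpoint. RefSeq promoter windows, which run from 250 bases before to 50 after an annotated start on GRCm38.p6, were matched for 6 of the 8 genes, all except Hes1 and Hes3. An asynchronous region lay over a window of all 6 (Notch1, Dll1, Jag1, Nrarp, Hes5 and Hes6), where 1.95% of the 17492 genes with a window had one, a contrast that the choice of genes with known regions does not allow to be read further. The letters that a region covered within the 250 bases before the start are shown next, 5′ to 3′ on the gene's strand, because they are where SOX2 regions and gene starts meet. The regions at Notch1, Hes5, Dll1 and Jag1 reach further from the start than the letters shown. For Nrarp the stretch under the mitotic region is shown. Capitals mark exact matches, on either strand, to the SOX core letters CATTGT or CTTTGT (reverse complements included) and, at Nrarp, to ATTGT followed 1 base later by the octamer ATGCAAAT, the composite arrangement known for SOX2 with the POU factor OCT4. The stretches at Hes5 and Hes6 lie inside the RefSeq span of their own gene. Which covered letters belong to exons or introns of other transcripts is not given in the annotation used here.

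Nrarp, chr2:25180627-25180757, plus strand: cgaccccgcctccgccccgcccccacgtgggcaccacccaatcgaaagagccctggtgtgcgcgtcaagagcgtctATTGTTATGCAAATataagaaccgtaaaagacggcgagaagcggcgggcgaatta
Dll1, chr17:15376933-15377182, minus strand: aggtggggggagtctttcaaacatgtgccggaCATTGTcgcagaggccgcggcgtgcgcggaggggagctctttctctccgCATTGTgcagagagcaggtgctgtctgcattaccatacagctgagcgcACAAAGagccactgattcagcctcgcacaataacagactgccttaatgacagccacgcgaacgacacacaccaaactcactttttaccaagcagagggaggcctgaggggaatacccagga
Jag1, chr2:137116521-137116770, minus strand: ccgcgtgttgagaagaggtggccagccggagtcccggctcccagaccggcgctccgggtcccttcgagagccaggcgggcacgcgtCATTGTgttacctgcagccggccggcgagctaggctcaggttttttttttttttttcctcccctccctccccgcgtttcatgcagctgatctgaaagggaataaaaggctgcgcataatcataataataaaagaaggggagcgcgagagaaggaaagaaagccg
Notch1, chr2:26503924-26504072, minus strand: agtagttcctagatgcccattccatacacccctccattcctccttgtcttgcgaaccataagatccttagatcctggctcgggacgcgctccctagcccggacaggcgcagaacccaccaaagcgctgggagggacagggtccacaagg
Hes5, chr4:154960673-154960825, plus strand: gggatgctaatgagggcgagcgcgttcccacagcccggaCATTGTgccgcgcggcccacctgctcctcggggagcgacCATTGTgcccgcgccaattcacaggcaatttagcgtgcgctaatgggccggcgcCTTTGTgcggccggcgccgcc
Hes6, chr1:91413253-91413446, minus strand: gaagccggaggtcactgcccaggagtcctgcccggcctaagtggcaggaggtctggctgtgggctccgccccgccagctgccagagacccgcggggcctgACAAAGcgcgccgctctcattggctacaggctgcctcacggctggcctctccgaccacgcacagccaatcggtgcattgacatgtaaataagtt

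Nrarp was the only one of the 8 genes with a mitotic region within 50 kb. The mitotic region, chr2:25180627-25180782, was 156 bp wide, at percentile 75.6 of the widths in its list. It reached from 131 bp before the annotated start to 24 bp after it. The asynchronous region there, chr2:25180384-25180960, was 577 bp wide (percentile 96.0 of its list) and reached from 374 bp before to 202 bp after the start. The mitotic region thus lay wholly within the asynchronous one and took up 27.0% of it, with midpoints 32.5 bp apart. The span of Nrarp (chr2:25180758-25183339) is 2582 bp, and 7.86% of it was under the asynchronous region. Widths of the lists cannot be compared as binding strength, since the thresholds differ and width grows with depth.

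The composite letters at Nrarp, chr2:25180703-25180716, began 55 bp before the start. Their centre was 5 bp from the midpoint of the mitotic region and 37.5 bp from that of the asynchronous one. Exact matches to this composite on either strand were found in 4 of 21263 promoter windows (0.0188%), a search added after the letters at Nrarp were seen. The octamer alone was in 1.66% of windows. The mitotic region at Nrarp also held the E-box letters CACGTG, to which Hes-family and other basic helix-loop-helix proteins bind, 108 bp before the start (7.84% of windows), and on the opposite strand, the N-box letters CACNAG 79 bp before it (41.9% of windows). Neither 6-letter SOX core was present in the window. A match of letters is a description and does not show which protein was bound.

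A mitotic region within 50 kb was a rare state, shared by 0.836% of protein-coding genes, and 0.0959% had one that overlapped an asynchronous region. Over a promoter window it was found at 2 of the 17492 genes with a window (0.0114%), Nrarp and Mical3. Nrarp was chosen for this pattern, so its place among these genes is a description. The genes most like it were those with overlapping regions of both lists nearest to their spans. These were Cd244a, Pde9a and Pisd, with the mitotic midpoint inside the gene, then Abcg1 at 306 bp outside and Izumo2 at 3.67 kb outside. Of the 9 overlapping pairs of regions in all, only the pair at Nrarp lay over a promoter window used here. Pde9a and Abcg1 had no such window, so a pair at their starts could not be counted. The other 7 genes described here were 410 kb (Hes6) to 9505 kb (Jag1) from the nearest mitotic region.

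Nrarp had 1 further asynchronous region at the edge of the 50 kb window, chr2:25231473-25231659. It was 187 bp wide, 48.2 kb beyond the gene, and lay inside Slc34a3, a phosphate transporter gene.

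**Figure D1:**
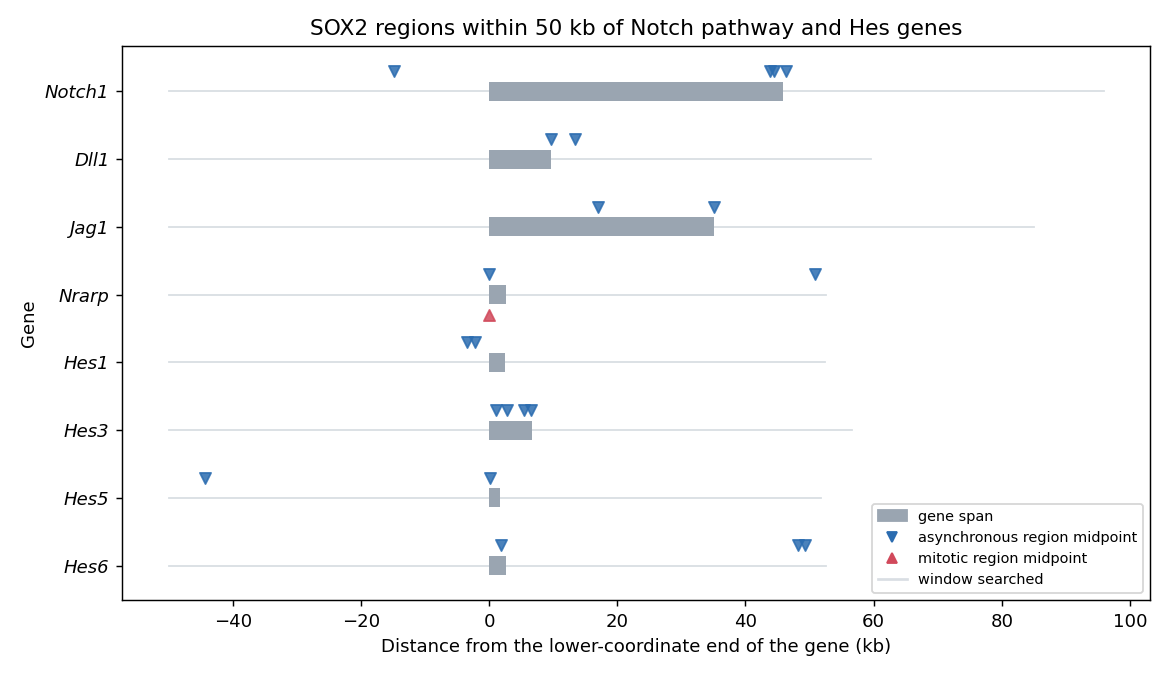
Positions of SOX2 regions around the 8 genes. The x axis is the distance in kb from the lower-coordinate end of each gene, grey bars are gene spans, blue triangles are midpoints of the 21 asynchronous regions, the red triangle is the mitotic region at Nrarp, and thin lines are the windows searched; 16 of the 21 midpoints lie inside a gene or within 10 kb of it.

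Notch1 encodes the receptor most studied in early development, and its regions gathered at its start. The gene lies on the minus strand at chr2:26457902-26503822. The widest of its 4 asynchronous regions, 504 bp (percentile 91.5), was chr2:26503924-26504427, from 102 to 605 bp before the start. A region of 277 bp (chr2:26502289-26502565) and one of 193 bp (chr2:26501702-26501894) lay inside the gene with midpoints 1.40 kb and 2.02 kb after the start. They were 394 bp apart, the smallest gap between neighbouring regions at any of the 8 genes. The remaining region, 439 bp wide, was 14.8 kb beyond the other end, inside Sec16a, whose product organises exit sites of the endoplasmic reticulum. The part of the window under the region held neither SOX core nor the octamer. Between the first and last of these regions, 4 peak numbers are not among the entries used here.

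Dll1 and Jag1 encode ligands of the Delta and Jagged families. Each had 2 asynchronous regions, with 1 across the gene start. At Dll1 (minus strand, chr17:15367354-15376932) that region, chr17:15376918-15377193, was 276 bp wide and ran from 261 bp before the start to 14 bp after it. It held the letters CATTGT 218 and 169 bp before the start and CTTTGT, on the opposite strand, 121 bp before it, the last 5 bp from the region's midpoint. The other Dll1 region, chr17:15380479-15381073, was the widest near any of the 8 genes at 595 bp (percentile 96.6) and lay 3.84 kb before the start. A further annotated start of Dll1, at position 15375823, had no region over its window.

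At Jag1 (minus strand, chr2:137081451-137116520) the region over the start, chr2:137116359-137116786, was 428 bp wide and reached 266 bp before and 161 bp after the start. CATTGT lay 164 bp before the start, 109 bp from the midpoint. The other region, chr2:137098309-137098624, was 316 bp wide and lay inside the gene, 18.1 kb after the start. Dll1 and Jag1, both chosen with their regions known, shared a region over the start. They differed in where the other one lay, outside at Dll1 and inside at Jag1. Of the 7 listed ligand genes, all with a promoter window, only these 2 had a region over it.

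**Figure D2:**
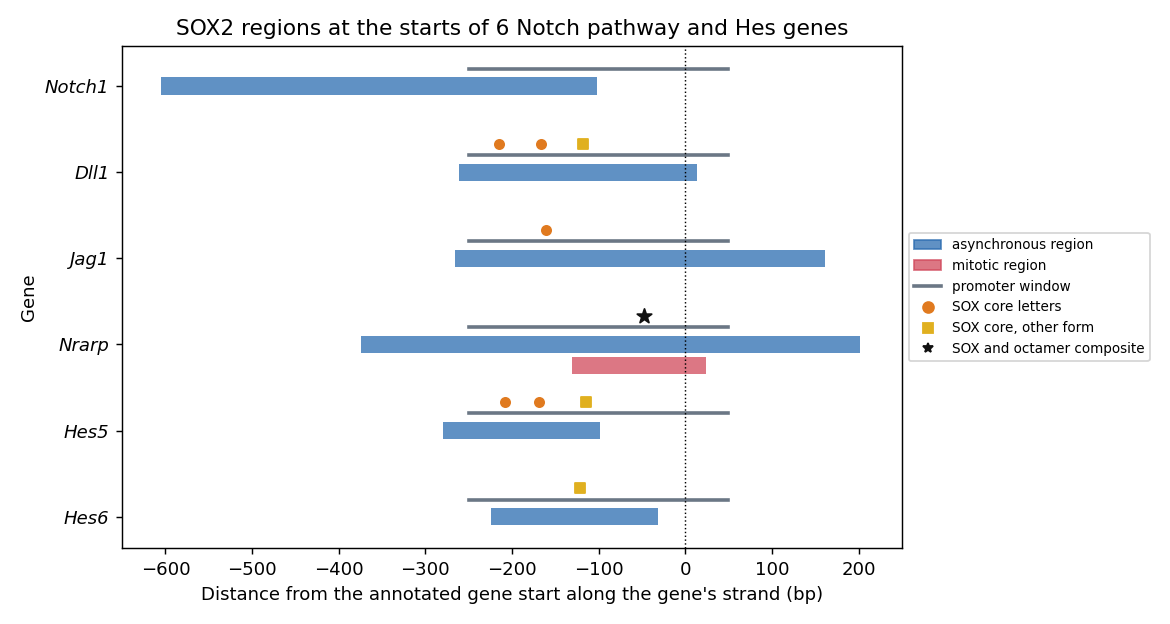
Regions at the annotated starts of the 6 genes with a promoter window, on the gene's own strand. The x axis is the distance from the start in bp, blue and red bars are asynchronous and mitotic regions, grey lines are promoter windows and symbols are matched letters; regions at Dll1, Jag1 and Nrarp cross the start, and those at Notch1, Hes5 and Hes6 end 102, 98 and 31 bp before it.

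The Hes genes encode repressors that bind DNA as basic helix-loop-helix dimers, and their regions differed in arrangement. Hes5, a main Notch target in neural progenitors, had a region of 183 bp, chr4:154960643-154960825, the smallest width in the asynchronous list, which 460 of its regions have. It lay from 98 to 280 bp before the start at position 154960923, inside the RefSeq span of chr4:154960626-154962372. In this short stretch CATTGT occurred 211 and 172 bp before the start, each 19.5 bp from the midpoint of the region, and CTTTGT 118 bp before it. The RBPJ core letters TGGGAA, present in 24.5% of promoter windows, lay on the opposite strand 226 bp before the start under the region, and on the gene's strand 82 bp before the start outside it. Hes5 thus had SOX and RBPJ letters in the same covered stretch, and no RBPJ core letters were in the covered stretches of the other 5 genes. These letters are common, also in windows under an asynchronous region (26.3%), so their presence does not set Hes5 apart. The second Hes5 region, 196 bp wide, was 44.4 kb away and 2.25 kb from its nearest gene, Tnfrsf14, a TNF receptor family gene.

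Hes6, whose product counters Hes1 and favours neuronal differentiation, had 3 regions. A region of 194 bp, chr1:91413253-91413446, ended 31 bp before the start at position 91413222 and lay inside the gene span (minus strand, chr1:91411483-91414038), because a further annotated start lies at position 91414038. CTTTGT, on the opposite strand, was 124 bp before the start and 6 bp from the region's midpoint. The window of the further start had no region over it. The other regions, 467 bp (chr1:91459402-91459868) and 236 bp (chr1:91460699-91460934) wide, were 45.6 and 46.8 kb from Hes6. Their nearest gene was Per2, a core gene of the circadian clock, at 0.284 and 1.47 kb.

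Hes3, a Hes factor studied in neural stem cells, was the only one of the 8 genes with 4 regions inside it. All 4 of its asynchronous regions had their midpoint inside the gene span (chr4:152285250-152291911), which is 6662 bp long. They were chr4:152286089-152286550 (462 bp), chr4:152287915-152288215 (301 bp), chr4:152290453-152290935 (483 bp) and chr4:152291730-152291949 (220 bp). Gaps between neighbours ran from 794 bp to 2.24 kb, and the regions summed to 1466 bp. They lay at percentiles 87.3, 53.8, 89.6 and 22.0 of the list's widths, so that 3 of the 4 were above the median of 289 bp. The next region outside the 50 kb window was 99.4 kb away. The same regions fell within 50 kb of neighbouring genes, among them Gpr153 and Icmt with 4 regions each and Acot7 with 5, since these genes lie 0 to 13.4 kb from Hes3. Within 10 kb, Gpr153 had 4 regions, Icmt 3 and Acot7 1, so the cluster lay close to these genes as well.

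Hes1, which encodes the repressor best known for oscillating expression, had 2 regions close together and outside the gene (chr16:30065357-30067796). They were chr16:30061726-30062138, 413 bp wide and 3.43 kb away, and chr16:30062915-30063352, 438 bp wide and 2.22 kb away. Only 776 bp separated them, and both lay on the lower-coordinate side of the gene. Hes1 was the only one of the 8 genes without a region inside it or within 1 kb. The entry names of 1 Hes1 region and 2 Hes3 regions carry a summit letter, and only 1 lettered entry of each was among the entries used here.

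Across the 8 genes, 9 of the 21 regions had their midpoint inside the gene, 13 inside or within 1 kb, and 16 inside or within 10 kb. For these 16 the gene was also the nearest protein-coding gene, and for the 5 further ones another gene was nearer. Widths ran from 183 to 595 bp with a median of 316 bp, and 12 of 21 regions were above the median of all asynchronous regions. The 6 covered stretches were 56.0 to 68.6% G or C, with a median of 59.0%, against a median of 56.3% over all promoter windows and 57.7% over the 365 under an asynchronous region. CATTGT occurred in 3 of the 6 stretches (Dll1, Jag1 and Hes5) and CTTTGT in 3 (Dll1, Hes5 and Hes6). Of all 21263 promoter windows, which are longer than these stretches, 2339 held CATTGT and 3572 (16.8%) held CTTTGT. The closer comparison is the 365 windows under an asynchronous region, of which 26.8% held CATTGT and 33.4% held CTTTGT. With only 6 stretches and no test, the counts do not set these genes apart from other windows under a region. Notch1 had neither CATTGT nor CTTTGT.

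**Figure D3:**
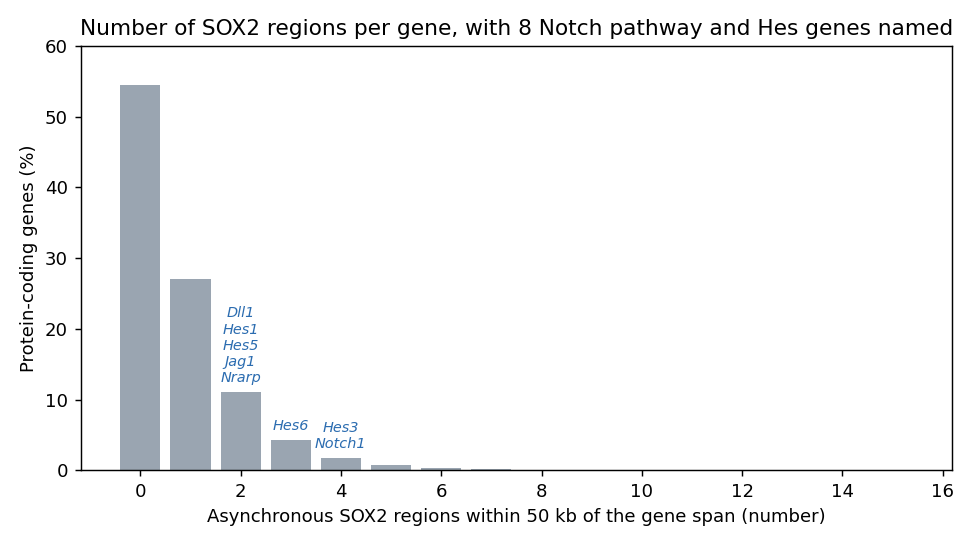
Share of protein-coding genes (y axis, %) by the number of asynchronous SOX2 regions within 50 kb of the gene span (x axis). Names stand above the bar of each gene's number; 54.5% of all genes have 0 regions and the 8 genes have 2 to 4.

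All 8 genes had at least 2 asynchronous regions within 50 kb, as 18.4% of protein-coding genes did. At least 1 was found near 45.5% of genes. Notch1 and Hes3 had 4 each, a number that 3.08% of genes reached or passed, and Hes6 had 3. Dll1, Jag1, Nrarp, Hes1 and Hes5 had 2 each. Within 10 kb all 8 genes had a region, against 23.8% of protein-coding genes. These counts follow from how the genes were chosen and support nothing further. The 8 genes had a median span of 4.62 kb against 17.2 kb for all protein-coding genes, so that most of their search windows were narrower. Notch1 at 45.9 kb and Jag1 at 35.1 kb were longer than that median, with wider windows. At the edge of the window, the farthest region counted was 48.2 kb from Nrarp and the nearest left out was 61.8 kb from Hes1.

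The wider pathway was read from a list of 53 genes, of which 45 are not among the 8. Of these 45, 27 (60%) had an asynchronous region within 50 kb, 13 (28.9%) had 2 or more and 15 (33.3%) had one within 10 kb. The same shares over all protein-coding genes were 45.5%, 18.4% and 23.8%. The 45 genes had a median of 1 region, against 0 for all protein-coding genes. However, their median span of 24.3 kb was longer than the 17.2 kb of all genes, so that their search windows were wider. None had a mitotic region within 50 kb, which by the limit of 3 counts allows a share of up to 6.67%, for counting error only and includes the 0.836% of all genes. None of the 35 with a promoter window had a region over it, which allows up to 8.57% and includes the 1.95% of all genes with a window. Counts of 0 among so few genes cannot be told from these background shares, and the 6 genes with a region over a window were chosen with their regions known.

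The counts by role that follow rest on 3 to 9 genes each and are to be read against the 45.5% of all protein-coding genes with a region within 50 kb. Among the receptor genes, all 4 had a region within 50 kb. Notch4 had 2 and Notch2 and Notch3 had 1 each, below the 4 at Notch1, and the one at Notch3 was 48.5 kb away. Among the ligand genes, Dll4 had 1, 3.19 kb away, and Dll3, Jag2, Dlk1 and Dlk2 had none, with the nearest 65.8 to 106 kb away. The enzymes that add sugars to Notch were led by Lfng, the fringe gene of the segmentation clock, with 3 regions. Rfng had 1 at 0.631 kb from the gene. Of the ligand endocytosis genes, Neurl1a had 2 and Mib2 had 1 at 1.06 kb.

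Among 9 genes of receptor cleavage, 5 had a region. Ncstn, a subunit of gamma-secretase, had 3, and the proteases Adam10 and Adam17 and the presenilin gene Psen2 had 2 each. For the last 3 genes every region was more than 10 kb away. The nuclear complex had regions at 6 of 7 genes, whose median span of 102 kb gives wider search windows than most. Rbpj, the DNA-binding partner of the Notch intracellular part, had 4, as many as Notch1 and Hes3, with 2 within 10 kb and no region over a promoter window. The coactivator gene Maml2, which spans 413 kb, had 3. Among the inhibitors and feedback genes other than Nrarp, 4 of 8 had a region, led by the ubiquitin ligase gene Fbxw7 with 3.

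The Hes and Hey family was uneven. Hes1, Hes3, Hes5 and Hes6 had 2 to 4 regions, each with at least 1 within 10 kb. The related genes Hes2 and Hey1 had 1 region each, at 23.4 and 18.3 kb, and Hes7, Hey2 and Heyl had none within 50 kb. The nearest regions of these last 3 were 131, 59.0 and 232 kb away. Hes7 and Hey2 had promoter windows with no region over them. The family members with regions at the gene are those chosen here, so the contrast within the family is a description of the lists and was not tested.

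**Figure D4:**
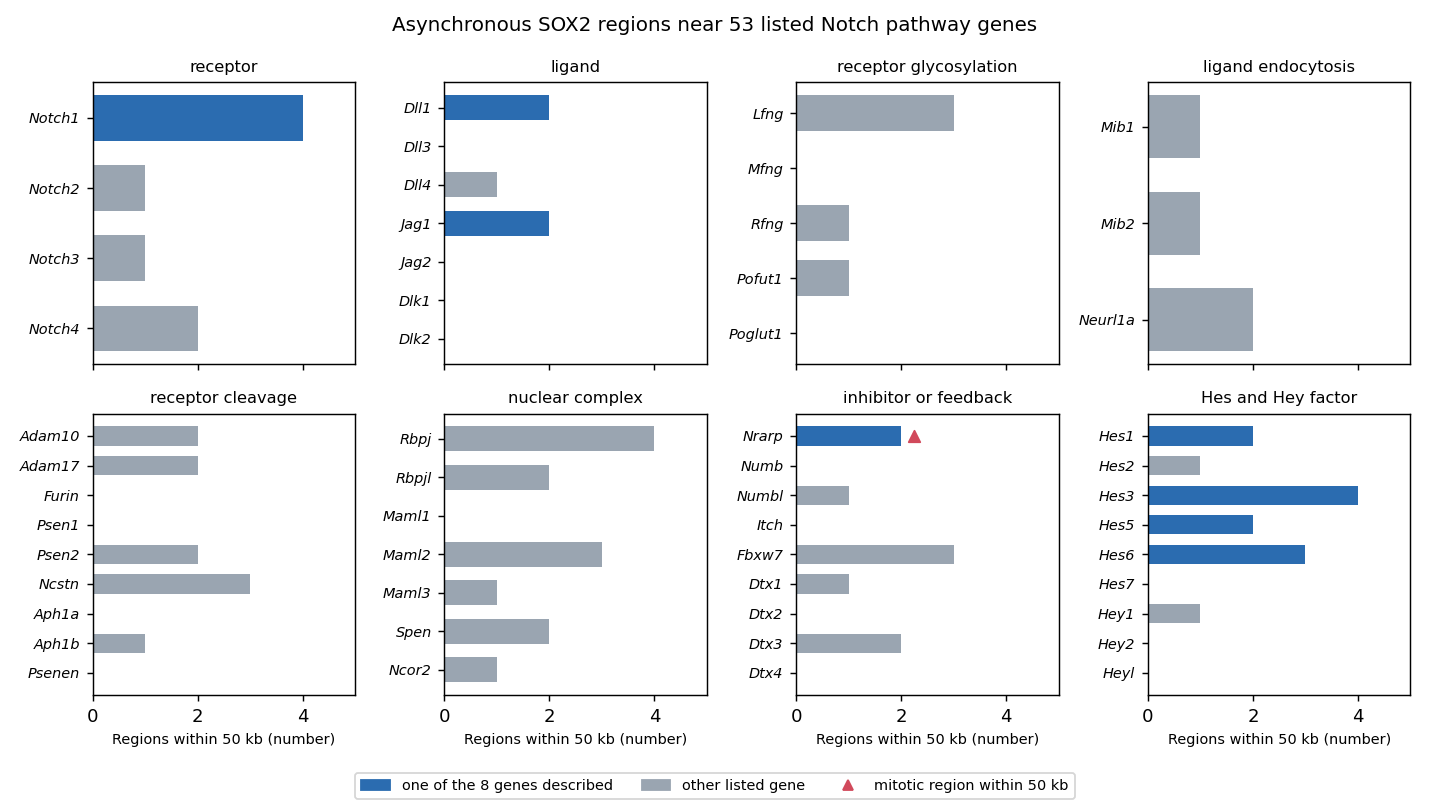
Number of asynchronous SOX2 regions within 50 kb (x axis) of each of the 53 listed genes, by role. Blue bars are the 8 genes described, grey bars the other listed genes and the red triangle marks a mitotic region within 50 kb, which only Nrarp has; Notch1, Rbpj and Hes3 have the most regions, 4 each.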

How the data were processed

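Per the submitters' processing notes, Bowtie2 2.2.1, MACS2 and mm10 were used. The MACS2 version is not given in the sources used here. The authors, per the names of the deposited lists, called peaks of ChIP against input once per condition on 3 pooled replicates and took out blacklisted regions. The deposited values are other than counts or signals: positions in bp, without replicate values or depth. Starts were converted to count from 1, and 181 of 10532 asynchronous entries with repeated coordinates were merged. Distances run from a region's midpoint to the RefSeq gene span (GRCm38.p6, 21 chromosomes). Overlap meant at least 1 bp. Promoter windows and letters came from RefSeq, and exact matches were sought on both strands. The counting was checked on simulated data. Python 3.11.15, numpy 2.4.6 and pandas 2.3.3 were used.

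The genes and lists were chosen with earlier results of these data known, and no test was run. Named beside the 8 genes were listed genes with a region reaching within 1 kb of a gene end, the 10 others with most regions (of 8 genes tied at 2 regions, the first 5 in list order; Rbpjl, Spen and Dtx3 fell outside), up to 5 genes with overlapping regions of both lists, and nearest genes of regions. Listed genes without a region, those with 1 region named for comparison, Mical3, Pipox and the composite letters were picked with their values already seen.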

Additional observations from a re-analysis of the deposited data

How the results depend on the processing

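Of 37 recomputed values over 8 results, 32 stayed within 1.5 times. All 8 genes had an asynchronous region under every window and nearest-gene setting run, 7 with only regions wider than the median of their list (Hes5 dropped out) and 6 with distance from the gene start, which could be measured only for the genes with a promoter entry. The regions near them numbered 21, and 12 among the wider regions and 13 by gene start, both by construction. Of the 53 listed genes, 35 had a region within 50 kb, 23 within 10 kb, 22 among the wider regions and 23 when a region counted only for its nearest gene. Nrarp alone had a mitotic region in all settings run. A region lay over the window of 5 genes by its midpoint and of 4 by the first listed start, alternatives added after the data were seen. No test was run, so no paired fit was made. Depth is unknown, and thresholds differ between the lists.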

Other observations

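Among all 21263 promoter windows, those under an asynchronous region held SOX letters more often than the others. CATTGT was in 26.8% of 365 windows under a region and 10.7% of the other 20898, and CTTTGT in 33.4% and 16.5%. The octamer ATGCAAAT was in 5.21% and 1.60%. The N-box letters CACNAG, looked for because Hes proteins bind them, were in 44.4% and 41.8%, the E-box letters CACGTG, which they also bind, in 11.5% and 7.77%, and the RBPJ core TGGGAA in 26.3% and 24.5%. These are descriptions without a test, and windows of genes with several starts can overlap.

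The exact composite was in 4 windows, of which 2 were under an asynchronous region, those of Nrarp and Pipox, an enzyme gene of pipecolic acid breakdown. With 1 mismatch allowed in the octamer, a setting added after the data were seen, 8 windows held it, 5 of them under an asynchronous region, and among the 6 stretches shown for the Notch and Hes genes only that of Nrarp did. The 2 windows under a mitotic region were those of Nrarp and Mical3, and the one at Mical3, an actin-oxidising enzyme gene, held no composite and was not under an asynchronous region.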
